A study of Pseudochlorella pringsheimii with 2 samples.

Results

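Of the 13566 contigs with deposited counts, 4 are described here, named in the study as flavodoxin (contig 88349), flavin-containing monooxygenase (contig 80694), cytochrome P450 (contig 93291) and glutathione S-transferase related protein (contig 73041). They were found by their contig numbers in both libraries. The organism is the single-celled green alga *Chlorella ellipsoidea*, labelled as *Pseudochlorella pringsheimii*. The study listed them among 46 contigs whose level differed more than 4-fold between these libraries. Fatty acid and lipid transcripts are given separately and left out of that list, except contig 83574, a fatty acid elongation protein, which is in both. Some other contigs past 4-fold are not in the list either. The 4 contigs were thus chosen by the ratio that is given here. That ratio, and the levels behind it, are therefore a description and were not tested.

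The 2 libraries come from transformants of strain IGDB-1. Dof4-1 carries soybean GmDof4, which encodes a DNA-binding regulator of the Dof class found in plants, behind a ubiquitin promoter, and the resistance gene nptII. CK (line CK-1) carries pCK, the same vector without the GmDof4 insert. Each is a single transformed line, obtained by electroporation and selected with 30 mg/L G418. Both were grown without antibiotic for 120 hours in Endo medium, which allows mixotrophic growth, at 25°C and 100 μmol photons per square metre and second. RNA was isolated from 3 cultures of each strain after they had been mixed, so each strain has 1 library and the differences have no replicate check. From a DNA blot with 2 bands the study proposes 2 GmDof4 copies in Dof4-1. The effect of GmDof4, of its copy number, of the place or places of insertion and of the cultures cannot be told apart. The GmDof4 transcript was not measured here. A smaller share of cells with a transcript and less transcript per cell cannot be told apart either.

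These 4 names stand for electron transfer, oxidation chemistry and, for glutathione S-transferase, the joining of glutathione to other compounds. Flavodoxin is a small electron carrier with the flavin FMN, and in cyanobacteria and algae it is known to take the place of the iron-sulphur protein ferredoxin when iron is scarce. Flavin-containing monooxygenases use FAD and NADPH to place 1 oxygen atom on nitrogen or sulphur of small molecules. Cytochromes P450 carry out oxygenations of many substrates, steroids, fatty acids and pigments among them, at a heme iron. Glutathione S-transferases join glutathione to reactive compounds, and some of them reduce organic peroxides. The names rest on the best protein match of each contig in the study. That match was strong for flavodoxin and much weaker for the flavin-containing monooxygenase. It was weakest for the cytochrome P450 and the glutathione S-transferase related contigs, so the last pair of names is the least secure. Contig sequences were not used here. A contig may be only a part of a transcript, and in the study some contigs share the same best protein match. Whether other contigs come from the same genes as these 4, and how they behave, was not examined.

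In the GmDof4 library 14589660 reads were counted and in the CK library 14823559. Levels are given as reads and as RPKM, the reads divided by contig length in kb and by the library total in units of 1000000 reads, which allows contigs of different length to be compared. The median contig had 24.4 RPKM in GmDof4 and 22.6 in CK. Ratios are GmDof4 over CK after division by the library totals, on the log2 scale, and the 95% intervals are exact and cover counting error only. The reads were amplified by PCR and carry no molecular identifiers, so they are not all independent molecules. The middle of all contigs was close to an equal level, with a median log2 ratio of 0.09 and 25% of contigs below -0.18 and 25% above 0.37.

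The flavodoxin and flavin-containing monooxygenase contigs were higher in the GmDof4 library, and the cytochrome P450 and glutathione S-transferase related contigs were lower. All 4 lie past 4-fold. Among the 13565 contigs with at least 1 read, 0.641% were higher and 0.280% lower by more than that. Nothing is read from these shares, since passing 4-fold was a condition for being in the list. The contigs next to the threshold had log2 ratios of 2.00 just past it and 1.99 just within it on the higher side, and of -2.05 and -1.92 on the lower side. Of the contigs described, only 73041 lies near the threshold.

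The flavodoxin contig 88349, 943 bp long, was covered by 790 reads in the GmDof4 library and by 23 in CK, where 22.6 reads in GmDof4 would correspond to an equal level. In RPKM this is 57.4 (95% interval 53.5 to 61.6) in GmDof4 and 1.65 (1.04 to 2.47) in CK. The contig was thus 34.9-fold higher in GmDof4 (23.1 to 55.4), a log2 ratio of 5.13. It went from the lowest levels of one library to the upper range of the other, as 0.133% of contigs had a lower RPKM in CK and 74.9% in GmDof4. Only 18 contigs with reads were at or below its level in CK, itself included. Their median in GmDof4 was 20.8 RPKM, and flavodoxin had the highest level of them there. By its ratio it held place 8 from the top among all contigs. It held place 1 among the 46 contigs of the study's list, which leaves out the fatty acid and lipid transcripts other than contig 83574. No other contig was both as low in CK and as high in GmDof4. Contigs were assembled from the merged reads of these and a further transgenic library, so transcripts low in all of them may have no contig. The places among contigs given here and below do not count such transcripts.

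The flavin-containing monooxygenase contig 80694 is the shortest of the 4, with 318 bp. Only 3.08% of contigs were shorter, the shortest being 300 bp. It was covered by 51 reads in the GmDof4 library and by 6 in CK. Its RPKM was 11.0 (8.18 to 14.5) and 1.27 (0.467 to 2.77). Its log2 ratio was 3.11, with an interval of 1.89 to 4.62 that reaches within 4-fold. It therefore has a less certain ratio than flavodoxin, the other described contig that was higher in GmDof4. Its 57 reads over both libraries place it among the least covered contigs, with 0.509% having fewer. Its level in CK was as low as that of flavodoxin, but in GmDof4 it stayed in the lower range, where 12.8% of contigs had a lower RPKM. Of all contigs, 10 others were at or below it in CK and at or above it in GmDof4.

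The cytochrome P450 contig 93291, of 527 bp, showed the opposite pattern to flavodoxin. It had 5 reads in GmDof4, against 231 in CK, and at an equal level 227 would have been counted in GmDof4. Its RPKM was 0.650 (0.211 to 1.52) in GmDof4 and 29.6 (25.9 to 33.6) in CK, so that it was 45.5-fold higher in CK (19.2 to 141). The wide interval comes from the 5 reads. In CK it was a contig of ordinary level, with 59.0% of contigs below it, while in GmDof4 only 2 of the 13566 contigs were lower. Among contigs with reads, 1 other was at or below it in GmDof4, and that contig was also higher in CK. Its ratio took place 3 from the bottom among all contigs and the lowest place in the study's list.

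The glutathione S-transferase related contig 73041, 939 bp long, was covered by 217 reads in the GmDof4 library and by 1036 in CK. Its RPKM of 15.8 (13.8 to 18.1) in GmDof4 and 74.4 (70.0 to 79.1) in CK corresponds to a level 4.70-fold higher in CK (4.06 to 5.46). This is the smallest of the 4 differences, and its interval ends just past 4-fold. Unlike the other three it had well over 100 reads in both libraries, and in neither was it near the lowest level. The share of contigs below it was 80.1% in CK and 30.0% in GmDof4. Its ratio took place 30 from the bottom among all contigs and place 9 from the bottom in the study's list.

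**Figure D1:**
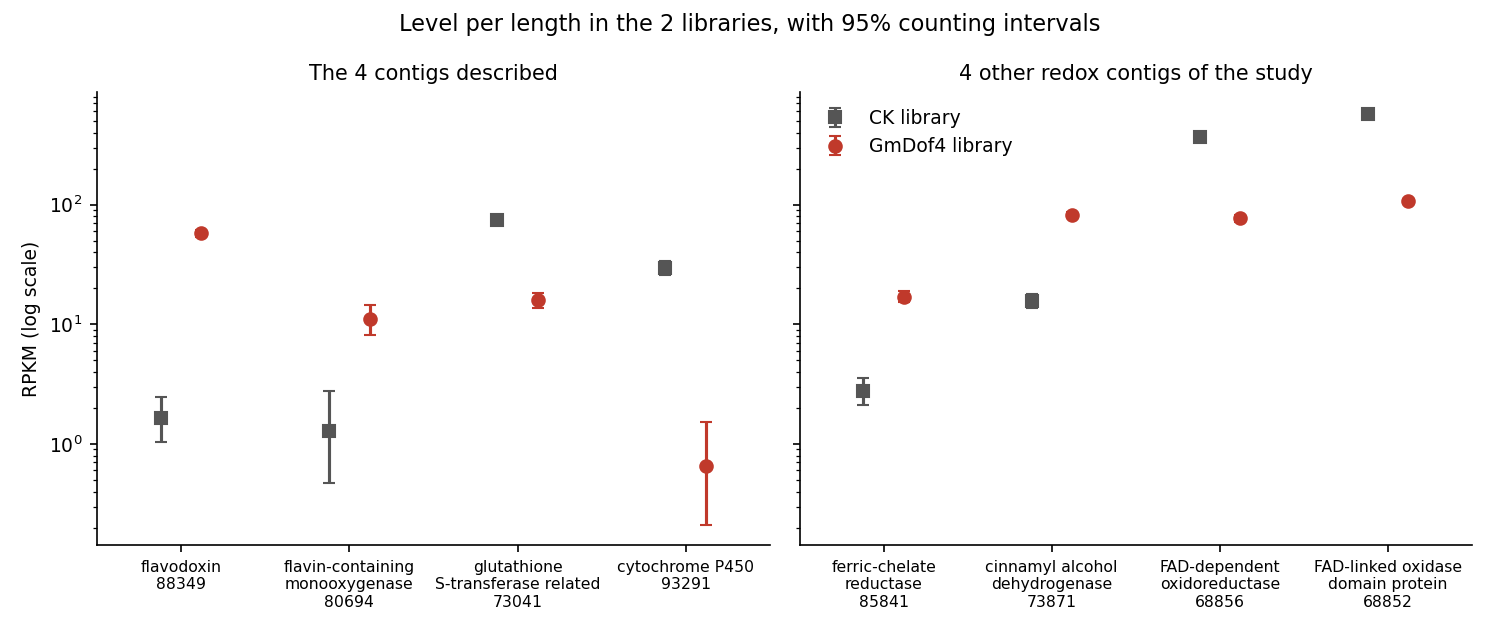
RPKM on a log axis of the 4 contigs described (left) and of the other 4 redox contigs of the study's list (right) in the CK library (squares) and the GmDof4 library (circles), with exact 95% counting intervals; where none is seen it is smaller than the symbol. Flavodoxin goes from 1.65 in CK to 57.4 in GmDof4, and cytochrome P450 from 29.6 to 0.650.

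The order of the 4 contigs by level differed between the libraries. In CK the glutathione S-transferase related contig was the highest, 2.52 times (2.18 to 2.92) above cytochrome P450 in RPKM, and cytochrome P450 was 18.0 times (11.7 to 28.9) above flavodoxin. Flavodoxin and the monooxygenase were not separated in CK, with a ratio of 1.29 and an interval of 0.512 to 3.88. In GmDof4 flavodoxin was the highest, 3.63 times (3.12 to 4.23) above the glutathione S-transferase related contig. The latter was followed by the monooxygenase, 1.44 times (1.06 to 2.00) lower, and the monooxygenase was 16.9 times (6.79 to 54.3) above cytochrome P450. Flavodoxin and cytochrome P450 thus exchanged their order, from 18.0 times more cytochrome P450 in CK to 88.3 times (37.7 to 273) more flavodoxin in GmDof4.

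**Figure D2:**
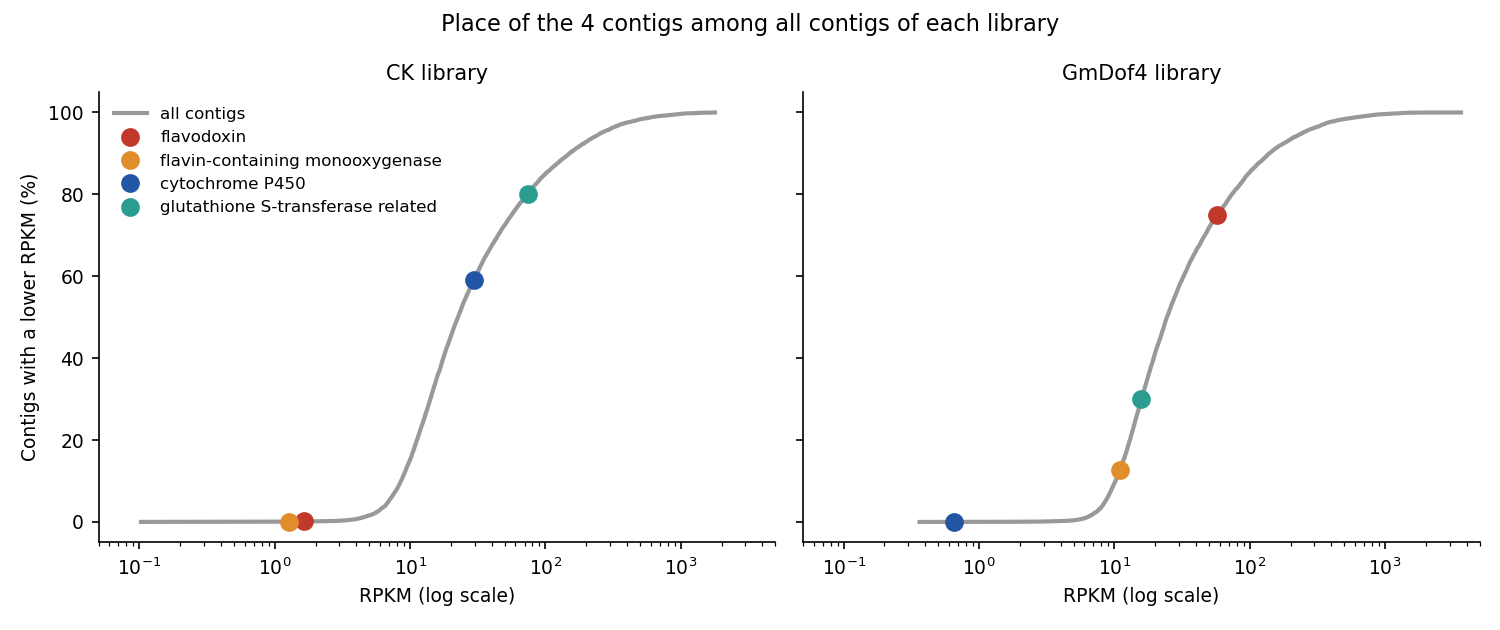
Share of contigs with a lower RPKM against RPKM on a log axis, for all 13566 contigs (line) and the 4 contigs described (points), in the CK library (left) and the GmDof4 library (right). In CK flavodoxin and the monooxygenase sit at the foot of the line, at 0.133% and 0.0958%, and in GmDof4 cytochrome P450 sits there instead, at 0.0147%.

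Summed over the 4 contigs, the reads were somewhat lower in GmDof4. Their sum was 1063 reads in GmDof4 and 1296 reads in CK. Per 1000000 counted reads (RPM) this is 72.9 and 87.4, and the log2 ratio of the sum was -0.26 (-0.38 to -0.14). The pair that was higher in GmDof4 went from 1.96 RPM in CK to 57.6, and the pair that was lower went from 85.5 to 15.2. The make-up of the sum was different. Flavodoxin took 74.3% (71.6 to 76.9) of the summed reads in GmDof4 and 1.77% (1.13 to 2.65) in CK, and the glutathione S-transferase related contig took 20.4% (18.0 to 23.0) and 79.9% (77.7 to 82.1). These are exact Clopper-Pearson intervals. As a part of all reads the 4 contigs are small, with 0.00729% in GmDof4 and 0.00874% in CK.

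The 6 differences between the log2 ratios of these contigs were calculated with exact conditional intervals of the odds ratio. They describe the counting error of ratios by which the contigs were chosen, in 1 library per strain, and are not a test. Flavodoxin was above the monooxygenase by 2.01, with an interval of 0.36 to 3.43. On the lower side, cytochrome P450 lay below the glutathione S-transferase related contig, with a difference of -3.27 (-4.93 to -2.00). The widest difference was that between flavodoxin and cytochrome P450, at 10.63 (9.16 to 12.35). In size, without regard to direction, the ratios of flavodoxin (log2 interval 4.53 to 5.79) and cytochrome P450 (-7.14 to -4.26) overlap, and which of them moved further is not resolved at this depth.

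The study's list holds 4 further contigs named as oxidoreductases, which were listed for their ratio in the same way, so that their directions are no independent evidence. Of these, 2 were higher and 2 lower in GmDof4. The ferric-chelate reductase contig 85841, an enzyme of iron uptake at the cell surface, was covered by 380 reads in the GmDof4 library and by 63 in CK. Its log2 ratio was 2.62 (2.23 to 3.02). Like flavodoxin and the monooxygenase it was near the foot of the CK library, with 2.77 RPKM there and 0.229% of contigs lower. In GmDof4 it had 17.0 RPKM. Its ratio was below that of flavodoxin, with a difference of -2.51 (-3.29 to -1.77). Against the monooxygenase no difference was detectable at this depth, the monooxygenase being higher by 0.49 with an interval of -0.81 to 2.07. The cinnamyl alcohol dehydrogenase contig 73871, named for an enzyme that in land plants reduces cinnamaldehydes on the way to lignin, was covered by 1220 and 236 reads. Its log2 ratio was 2.39 (2.19 to 2.60). It was already of moderate level in CK, at 15.7 RPKM, and had 82.6 in GmDof4.

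The pair of lower contigs had a higher RPKM than any of the 4 described in both libraries, by a wide margin in CK. In GmDof4 the margin over flavodoxin was small, 1.87 times (1.72 to 2.03) for the first and 1.34 times (1.21 to 1.47) for the second. The FAD-linked oxidase domain protein contig 68852 was covered by 1994 reads in the GmDof4 library and by 10882 in CK. Its RPKM was 107 and 576, and its log2 ratio -2.43 (-2.49 to -2.36). The FAD-dependent oxidoreductase contig 68856 was covered by 868 and 4224 reads. Its RPKM was 76.7 and 367, and its log2 ratio -2.26 (-2.37 to -2.15). In CK 98.7% and 97.2% of contigs were below them. The ratio of the glutathione S-transferase related contig was close to both, with differences of 0.19 (-0.04 to 0.42) from contig 68852 and 0.03 (-0.22 to 0.27) from contig 68856. The ratio of cytochrome P450, whose whole interval lies below -4.26, was lower than both.

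Contigs named for proteins that bind a flavin therefore stood on both sides. By their names, flavodoxin and the monooxygenase use a flavin and were higher in GmDof4. The FAD-linked oxidase and the FAD-dependent oxidoreductase, again by name, use FAD and were lower. Over the 8 redox contigs the summed reads were 5525 for GmDof4 and 16701 for CK. This is 379 and 1127 RPM, with a log2 ratio of -1.57 (-1.62 to -1.53). The FAD pair held 2862 of these reads for GmDof4 and 15106 for CK, so the sum mostly follows that pair. The ferric-chelate reductase and cinnamyl alcohol dehydrogenase contigs together held 1600 and 299.

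**Figure D3:**
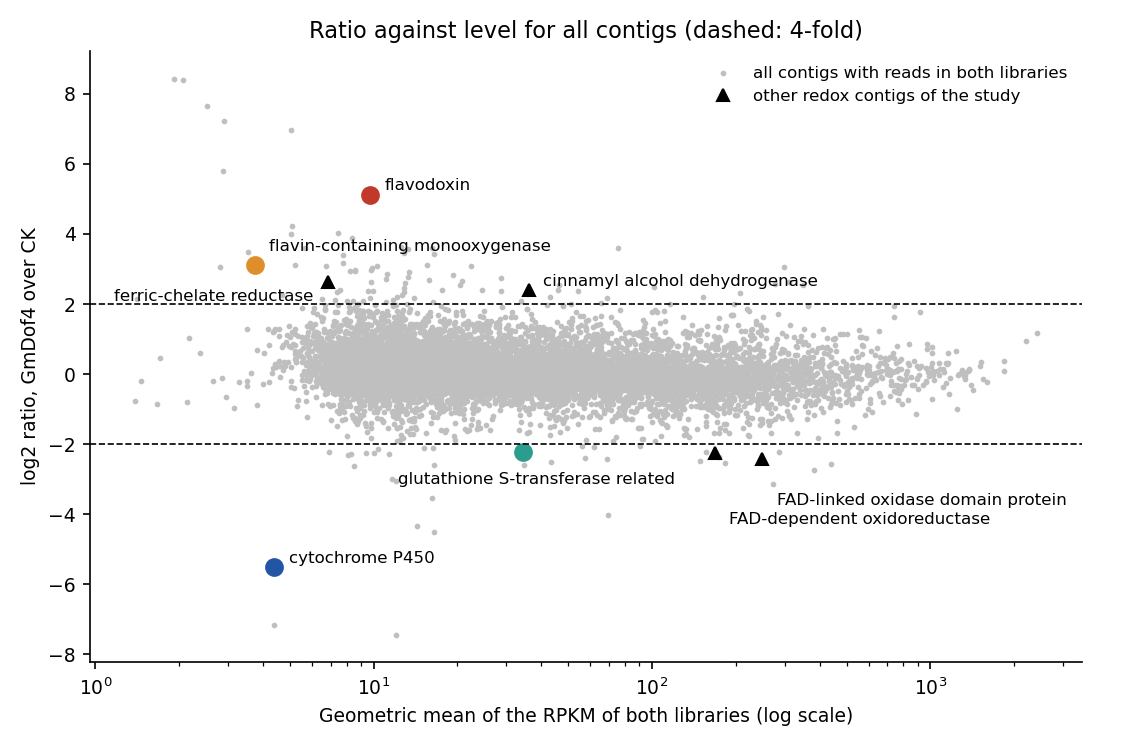
Log2 ratio of GmDof4 over CK against the geometric mean of both RPKM values on a log axis, for all contigs with reads in both libraries (grey), the 4 contigs described (coloured circles) and the other 4 redox contigs of the study's list (triangles), with 4-fold dashed. Flavodoxin at 5.13 and cytochrome P450 at -5.51 lie apart from the grey cloud, while the glutathione S-transferase related contig at -2.23 lies at its lower edge.

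The number of contigs with a like pattern differed among the 4. Fewer contigs lie near the more extreme ratios, and these 4 were listed for their ratio, so the numbers are a description only. Likeness was taken as the distance between contigs over both libraries in log2 RPKM, among 13564 contigs with reads in both, so that a distance of 1 is a 2-fold difference in one library. For the glutathione S-transferase related contig 54 contigs lay within a distance of 1, the nearest being contig 78896 at 0.27, covered by 410 and 2543 reads. For the monooxygenase 6 contigs did, the nearest being contig 89614 at 0.29, a contig of 320 bp with 55 and 5 reads. Flavodoxin had 2 such contigs, the nearer being contig 90583 at 0.93, with 668 and 46 reads. Cytochrome P450 had 0, but its level in GmDof4 rests on 5 reads (0.211 to 1.52 RPKM), so counting error could change that number. The contig nearest to it, 55290, lay at 1.18, covered by 2 and 294 reads. The files do not pair these contigs with a gene name, and their levels in 2 libraries say nothing of a shared function.

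Counting error is only a part of the error, since the spread between cultures and between transformed lines was not measured. When a coefficient of variation of 0.4 between libraries was assumed and added to the counting error, the interval of flavodoxin was 3.47 to 6.78 and that of cytochrome P450 was -7.51 to -3.51, both still past 4-fold. Those of the monooxygenase (1.15 to 5.08) and the glutathione S-transferase related contig (-3.79 to -0.68) were not, and the latter reached within 2-fold. With an assumed coefficient of 0.1 the interval of the glutathione S-transferase related contig, -2.68 to -1.78, already reached within 4-fold. These coefficients are assumptions and were not estimated from the data.

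**Figure D4:**
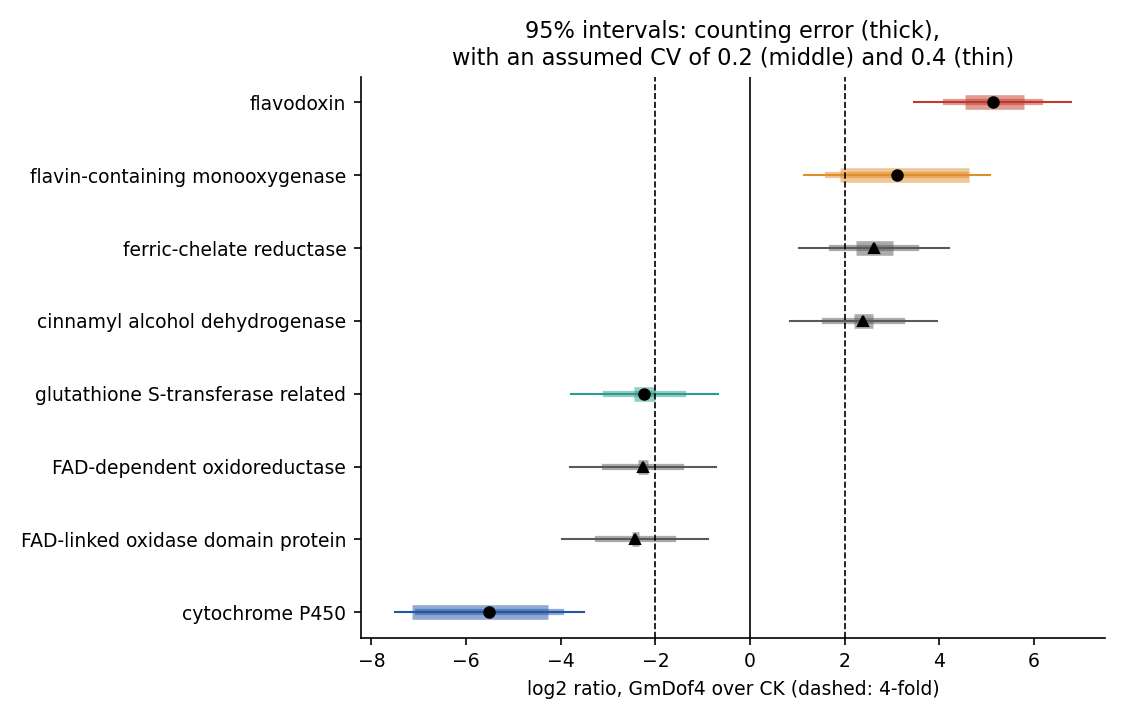
Log2 ratio of GmDof4 over CK of the 8 redox contigs (circles, the 4 contigs described; triangles, the others), with the exact 95% counting interval (thick) and approximate 95% intervals with an assumed coefficient of variation of 0.2 (middle) and 0.4 (thin) between libraries; 4-fold is dashed. With 0.4, flavodoxin and cytochrome P450 stay outside the dashed lines and the other 6 intervals cross them.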

How the data were processed

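RNA-seq libraries of strain Dof4-1 and of CK were sequenced once each, and were assigned by their genotype labels. The authors assembled the reads of both, with those of a further transgenic library, using SOAPdenovo, took the contigs from 300 bp upwards as reference, mapped reads with BWA and deposited a count of reads per contig and the RPKM made from it. The sources used here give neither tool versions nor the treatment of reads with several matches. A contig exists only where the merged reads sufficed to assemble it.

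The RPKM was checked against the value recalculated from count, contig length and library total (largest difference 5.23e-12). Log2 ratios of RPM were calculated for all contigs without a pseudocount, a count of 0 being set to 3 reads. Intervals were exact (Clopper-Pearson, Poisson, conditional odds ratio; scipy 1.17.1). Those of the log2 ratios were checked on simulated counts that held counting error only. With 1 library per strain no model with replicates could be fitted, and no p-value was calculated. Scaling factors came from edgeR 4.0.16 and DESeq2 1.42.0. Intervals with an assumed coefficient of variation (0.1, 0.2, 0.4) used a normal approximation on the log scale.

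The contigs, the list of other redox contigs and the rule for named contigs (the 4 contigs, the 4 other oxidoreductases of the study's list and the nearest contig to each of the 4) were chosen with earlier results of these data known.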

Additional observations from a re-analysis of the deposited data

How the results depend on the processing

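The log2 ratio of each of the 4 contigs was recalculated under 8 alternatives. These were TMM and median-of-ratios scaling, totals that leave out the 10 most counted contigs, no division by totals, centring on the running median of 500 contigs of like level, 1 read added to each count, and RPKM plus 1 or plus 0.1. None of the 32 values changed direction and 30 stayed within the counting interval. With RPKM plus 1, flavodoxin went to 4.46 and cytochrome P450 to -4.21, because 1 RPKM is large beside their level in one library. Under the 5 alternatives of scaling the ratio of the monooxygenase ranged from 2.78 to 3.11 and that of the glutathione S-transferase related contig from -2.33 to -2.23. The contigs past 4-fold, 87 higher and 38 lower, went to 778 and 325 at 2-fold. With contigs of at least 500 bp they were 54 higher, since shorter contigs, the monooxygenase among them, are left out. In 3 of the 4 contigs the counting interval lay past 4-fold, and in 2 with any of the assumed coefficients of variation. Of 30 recalculated places within a library, 11 moved beyond the counting error, all under RPM in place of RPKM or with contigs of at least 500 bp. No paired analysis was possible because there is 1 library per strain. For the same reason no library was left out in turn.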
